A study of Mus musculus with 8 samples.

Results

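Cytosolic ribosomal protein genes were examined in single endocardial cells of mouse embryos. Members were taken by name: the non-control probes of the array whose gene name is Rpl or Rps followed by a digit, or is Rplp0, Rplp1, Rplp2 or Rpsa, without the S6 kinase genes (Rps6k) and without names marked as pseudogenes (-ps). Of 35526 gene names with a usable probe, 86 met this rule, with 191 probes between them. Where a gene had several probes, the one with the highest mean signal over the 8 arrays stood for it. The set held 46 genes of the large subunit, among them the retrotransposed copy Rpl37rt, 31 of the small subunit, 8 tissue-restricted or duplicated paralogues, and Rps19bp1, which shares the name but encodes a binding partner of Rps19 and not a ribosomal protein.

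The study compared endocardium with and without Sox17, a transcription factor of endoderm and of endothelial precursors, at embryonic day 8.5 and the 9 somite stage. Each of the 8 arrays held the amplified cDNA of 1 cell picked by hand from a trypsin-dissociated heart tube. The 4 wild-type (WT) cells came from embryos that were Mesp1+/+ and Sox17flox/flox, and the 4 knockout (KO) cells from embryos that were Mesp1Cre/+ and Sox17flox/flox, so that both genotypes carried the floxed alleles and only the KO cells carried Cre, which the Mesp1 locus drives in early mesoderm. Because the embryo of each cell was not given, the cells of a genotype count as 1 sample. No test between genotypes was made, and each difference is given as KO minus WT of the mean log2 signal beside the SD between cells of the same genotype, pooled over the genotypes with n = 4 cells in each.

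The ribosome is built of a small subunit, which reads the mRNA, and a large subunit, which joins the amino acids. Each ribosomal protein is needed in about equal amounts, and their mRNAs are among the most abundant of a growing cell. Most of these mRNAs begin with a run of pyrimidines, the terminal oligopyrimidine tract, through which Larp1 and the mTOR kinase control their translation. In people, loss of 1 copy of several of these genes causes Diamond-Blackfan anaemia.

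The arrays differed in quality before any comparison. Between 11370 and 18175 probes per array were well above background, the fewest in WT cell 1. That array also had the largest variation between replicate spots, with a median coefficient of variation of 10.9% against 4.13% to 5.96% on the others. Neither of the 2 Sox17 probes was well above background in any cell, so the deleted gene itself offered no check of the genotypes on these arrays. Of 10 endothelial markers, 6 to 10 were well above background per cell. Cdh5 and Kdr were above the floor in all 8 cells, Emcn in 4 and Npr3 in 2. The summed scaled signal of the endothelial markers ran from 10037 to 35685 in the WT cells and from 7045 to 79403 in the KO cells. Of 9 cardiomyocyte markers, 3 to 7 were well above background per cell, and their summed scaled signal ran from 318 to 34056 in the WT cells and from 1001 to 48719 in the KO cells, with the highest values in WT cell 2, KO cell 1 and KO cell 4. The part of these markers in the results was not tested. Of 5 endoderm markers none was well above background in any cell, and of 5 blood markers at most 1 was. The smooth muscle genes Acta2 and Tagln were well above background in all 8 cells, but above the floor in only 3 and 4. Cnn1 was well above background in 0 cells. The summed scaled signal of these genes was 14376 in WT cell 2 and 7724 in KO cell 4, and at most 270 in the other cells.

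The pyrimidine run is the sequence that these genes are best known to share, so the windows around the RefSeq start sites (GRCm38.p6) of a few members are shown first. The longest run of C and T between 20 bases before and 49 bases after the annotated start base is in capitals, on the strand of the gene. Rpl27a, Rpl35 and Rpl14 show long runs across the start, Rps6 and Rpl38 show shorter ones, and Rpl22l1 and Rpl22 are a paralogue pair that differed in the presence of a run.
Rpl27a, chr7:109519186-109519215, plus strand: gtgagCTCCTCCCTTTTCCCTTTCTgccac
Rpl35, chr2:39005115-39005144, minus strand: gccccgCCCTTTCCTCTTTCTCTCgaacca
Rpl14, chr9:120571501-120571530, plus strand: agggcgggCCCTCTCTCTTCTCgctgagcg
Rps6, chr4:86857349-86857378, minus strand: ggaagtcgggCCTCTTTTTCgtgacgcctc
Rpl38, chr11:114668568-114668597, plus strand: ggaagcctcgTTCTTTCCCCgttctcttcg
Rpl22l1, chr3:28805499-28805528, plus strand: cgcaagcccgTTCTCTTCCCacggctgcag
Rpl22, chr4:152324413-152324442, plus strand: aatatcagcgctgcttctggaatgttccag

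The runs shown were 20 bases long in Rpl27a, 18 in Rpl35, 14 in Rpl14 and 10 in Rps6, Rpl38 and Rpl22l1. At the Rpl22 start shown the longest run was 5 bases, below the minimum of 8 used here, and nothing is in capitals. Start site sequences were matched for 65 of the 86 members. A run of at least 8 pyrimidines lay in the searched part of 48 of them (73.8%), against 28.5% of all 27025 genes in the table. The motif CCGGAAG, a core of ETS factor sites, searched on both strands of the 300 bases from 250 before to 50 after the start, was found in 25 members (38.5%) and in 9.93% of all genes. GGGCGGG, the Sp1 motif, was found in 31 members (47.7%) against 27.9% of all genes, and AAGATGGC, the core of the YY1 motif, in 6 members (9.23%) against 3.19%. TATAAA was found in 7 members (10.8%) and in 15.7% of all genes. A match is a description of the letters and not evidence that a factor binds there. Among core members, the 44 with a run had a median KO minus WT difference of 0.54, and the 13 without one had a median of 0.61.

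Ribosomal protein transcripts were detected throughout. All 77 core members were well above background in all 8 cells, and with the paralogues Rpl22l1 and Rpl36al this made 79 of the 86 members, against 6236 of 35526 genes overall. Only paralogues and Rps19bp1 fell short of this. Together the members held 13.6%, 11.4%, 12.04% and 11.1% of the summed signal of WT cells 1 to 4, taken over 1 probe per gene. The share was 11.2%, 12.1%, 10.2% and 10.98% in KO cells 1 to 4. The genotypes overlapped, and the mean share was lower in KO cells by 0.91 percentage points with an SD between cells of 0.95.

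**Figure D1:**
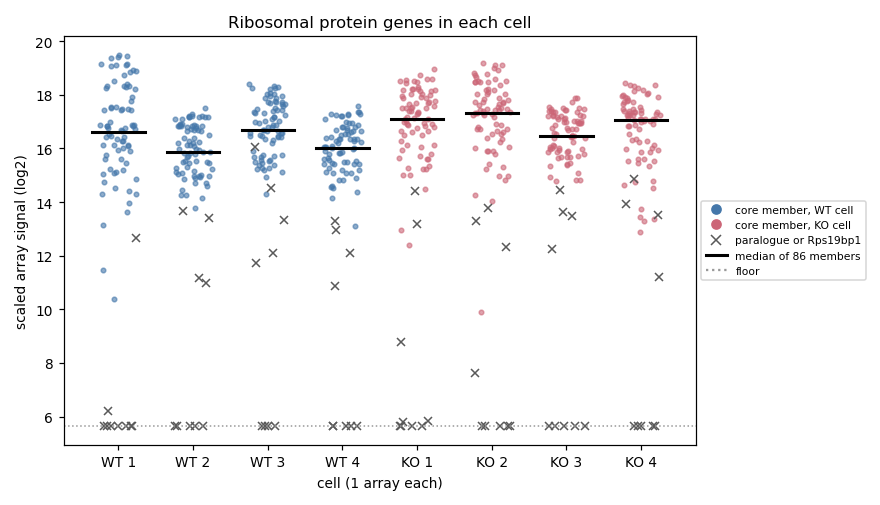
Scaled array signal (log2) of the 86 members in each of the 8 cells, with core members as dots, paralogues and Rps19bp1 as crosses, the median of all members as a black bar and the floor as a dotted line. The medians of the 4 WT cells lie between 15.87 and 16.68 and those of the 4 KO cells between 16.47 and 17.34, and the spread of members is widest in WT cell 1.

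After each array was scaled to the median of the probes detected on all 8 arrays, the members as a group had a higher mean signal in KO cells. For WT cells 1 to 4 the median signal of the members was 16.59, 15.87, 16.68 and 16.02, and for KO cells 1 to 4 it was 17.09, 17.34, 16.47 and 17.04. The 2 genotypes overlapped, since KO cell 3 was below WT cells 1 and 3. The median of the members' differences was 0.49. The mean of the cell medians was higher in KO cells by 0.70, with an SD of these medians between cells of 0.39. The large subunit had a median difference of 0.60 and the small subunit one of 0.47. Of the 86 members, 70 had a higher mean in KO cells, 14 a lower one, and 2 were at the floor in all cells.

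Other bright genes had a shift of like size. The 6236 genes well above background in all 8 cells had a median difference of 0.12, but in the top 25% of them by mean signal, which contained 78 of the members, the 1481 genes that are not members had a median difference of 0.54. The 78 members of that top 25% had a median of 0.53. The spread between cells was likewise similar, with a median SD of 0.70 for those members and 0.75 for the other genes. The members' median difference thus lay close to that of the other genes of the top 25%, which were not matched to the members by signal within it.

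Large differences are given beside their share among the genes at large. With a difference of at least 2-fold, 14 members were higher in KO cells, 13 of them among the 79 members detected in all cells (16.5%), against 14.2% of the 6236 genes and 24.2% of the other genes of the top 25% by signal. In the other direction, 2 members were at least 2-fold lower in KO cells, Rpl22 and Rps19bp1, of which Rpl22 was detected in all cells (1.27%), against 7.94% of the genes and 5.60% of the other genes of the top 25%. No member differed by 5-fold or more, compared with 2.41% of genes higher and 1.86% lower. All 4 KO cells were above all 4 WT cells for 5 members (6.33%), against 3.06% of all these genes and 9.25% of the other genes of the top 25%. The reverse order was seen for no member and for 0.273% of genes.

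**Figure D2:**
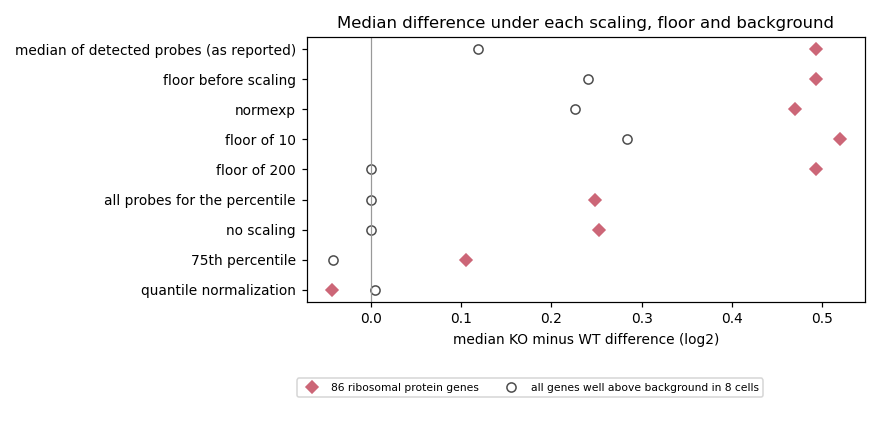
Median KO minus WT difference (log2) of the 86 members (diamonds) and of all genes well above background in 8 cells (circles) under the scaling reported here and 8 alternatives. The members' median is 0.49 with the scaling reported here, 0.11 with the 75th percentile and -0.04 after quantile normalization, so its sign depends on the scaling.

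The direction of the group depended on how the arrays were scaled. Scaling to the 75th percentile of the detected probes in place of the median reduced the members' median difference to 0.11, and with no scaling at all it was 0.25. After quantile normalization it was -0.04, with a median SD between cells of 0.45, lower than the 0.70 of the scaled values. The median difference of all detected genes was 0.00 after quantile normalization and -0.04 with the 75th percentile. Centring each cell on the median of the members, a setting chosen after the data were seen, lowers the difference of every member by 0.70. The differences below are on the scaled values, before this centring, after which 27 members had a higher and 59 a lower mean in KO cells.

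The level of the whole set varied from cell to cell. WT cell 2 held the lowest signal of 31 of the 77 core members and WT cell 4 that of 21, whereas KO cell 2 held the highest signal of 28 and WT cell 1 that of 22. WT cell 1 was also the lowest for 12 core members, and its core members covered an interquartile range of 2.51, against 1.27 to 1.74 in the other cells. Without WT cell 1, the median difference over all members was 0.73, and that of all genes detected in all 8 cells was 0.35. With the values of each cell centred on the median of the members, the median SD of a member between cells was 0.49.

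**Figure D3:**
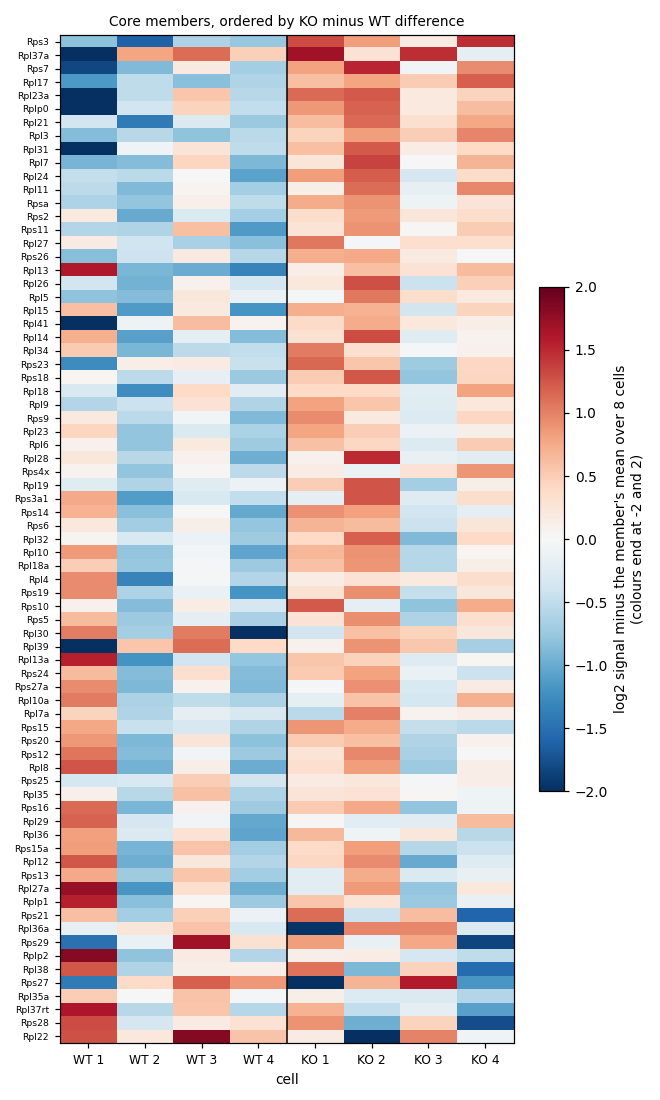
Log2 signal of 75 of the core members in each cell minus the mean of that member over the 8 cells, ordered by the KO minus WT difference from Rps3 at the top to Rpl22 at the bottom, with colours ending at -2 and 2. Most of a column shares a colour, pale to dark blue in WT cells 2 and 4 and red in KO cell 2, whereas WT cell 1 holds both dark red and dark blue members.

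Of the members whose genotypes did not overlap, Rps3 differed most. Rps3 lies at the mRNA entry of the small subunit and also takes part in DNA repair. The WT cells, given here and from now on in the order 1 to 4, had signals of 15.05, 14.26, 15.25 and 15.11, and the KO cells had 17.17, 16.71, 16.04 and 17.34. All KO cells were above all WT cells by at least 0.79, and the difference was 1.90 (3.72-fold) with an SD of 0.52. The other probes of Rps3 differed from this one, giving 1.02 with no overlap and, for a dimmer one, 0.19 with overlap and an SD of 1.82. Rps3 and Rpl21 were the only members whose KO cells stayed above all WT cells when each cell was centred on the members' median, with differences of 1.20 and 0.73, and again after quantile normalization, with differences of 1.24 and 0.81.

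Rpl3, a core protein at the peptidyl transferase centre, had the smallest SD of all members detected in all cells. It gave 15.18, 15.49, 15.24 and 15.50 in the WT cells and 16.49, 16.89, 16.54 and 17.02 in the KO cells. Both genotypes were tight and apart, with a difference of 1.38 (2.60-fold) and an SD of 0.22, and a second probe gave 1.41. Rpl17, which lines the exit tunnel of the large subunit, was similar. Its values were 13.97, 14.61, 14.29 and 14.51 in the WT cells and 15.72, 15.90, 15.63 and 16.31 in the KO cells, a difference of 1.55 with an SD of 0.29. Its 5 other probes detected in all 8 cells gave differences from 1.47 to 1.63, each without overlap.

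Rpl21, another large subunit protein, had values of 16.27, 15.24, 16.36 and 15.91 in the WT cells and 17.28, 17.80, 16.98 and 17.43 in the KO cells. The genotypes were apart by 0.61, with a difference of 1.42 and an SD of 0.43, and 3 further probes detected in all cells gave 1.33 to 1.51. Rps2, a small subunit protein near the mRNA entry, had values of 16.68, 15.48, 16.19 and 15.81 in the WT cells and 16.84, 17.34, 16.73 and 16.85 in the KO cells. Here the gap between the genotypes was only 0.05, the difference was 0.90 with an SD of 0.41, and a second probe gave 0.33 with overlap. With each cell centred on the members, the differences of Rpl3, Rpl17 and Rps2 were 0.68, 0.85 and 0.20, and their genotypes overlapped. On the scaled values, all 5 of these members kept their KO cells above the WT cells when any 1 cell was left out. Leaving out a cell could bring an overlap only through the renewed scaling, so no conclusion is drawn from this. With no scaling of the arrays, the genotypes overlapped for each of the 5. They overlapped for Rpl3 and Rpl17 with the percentile taken over all probes, and for Rps3 and Rps2 with all probes of a gene averaged. Quantile normalization brought overlap for Rpl3, Rpl17 and Rps2, and the 75th percentile for Rps2.

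**Figure D4:**
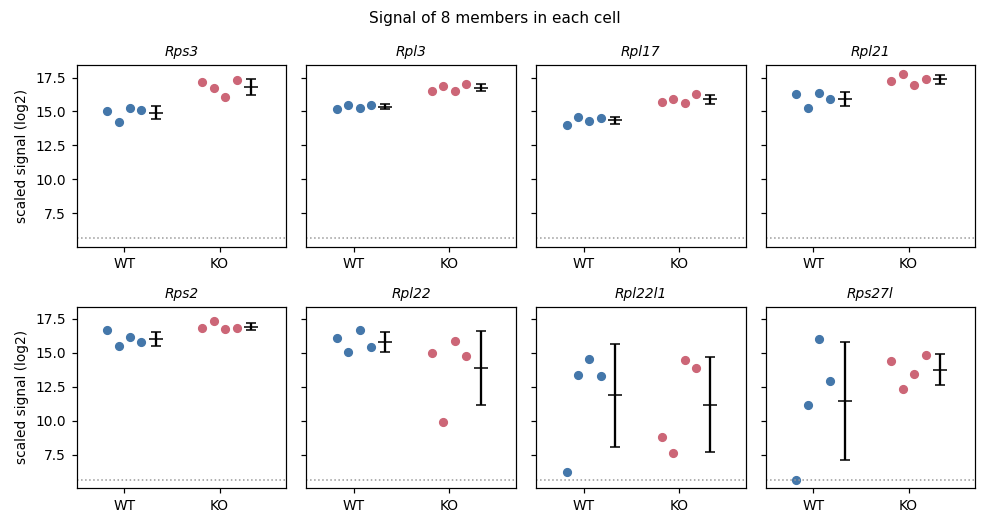
Scaled signal (log2) of 8 members in the WT (blue) and KO (red) cells, 1 dot per cell, with the mean and SD of each genotype in black and the floor as a dotted line. Rps3, Rpl3, Rpl17, Rpl21 and Rps2 show no overlap between genotypes. Rpl22 and Rps27l each have a single cell far below the others, and Rpl22l1 has low cells in both genotypes.

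Because ribosomal protein mRNAs have many near-identical processed copies in the genome, the position of a probe does not always mark the gene that was measured. The file gave a position in the mm9 build for 84 of the 86 chosen probes, and 54 of these lay on another chromosome than the gene itself. Only chromosomes were compared, so a probe placed elsewhere on the chromosome of its gene is not in this count. Signal from a gene and from its copies cannot be told apart on such probes. The chosen probes of Rpl3 and of its paralogue Rpl3l are shown because they cover overlapping parts of the coding sequence, with capitals for identical bases in the overlap.
Rpl3, chr4:112627797-112627856 (mm9, minus strand): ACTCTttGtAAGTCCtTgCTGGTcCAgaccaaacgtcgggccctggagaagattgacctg
Rpl3l, no position given: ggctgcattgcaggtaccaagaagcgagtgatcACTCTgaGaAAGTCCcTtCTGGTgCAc

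The overlap was 27 bases, of which 20 were identical. The Rpl3 probe was bright in every cell, whereas Rpl3l, the muscle paralogue, was well above background in 1 cell and at the floor in the remaining 7. A probe each of Rpl21 and Rps2 is shown as well, since both genes are among those described above. The Rpl21 probe was placed on another chromosome than the gene. The Rps2 probe was on the chromosome of its gene but far from it, since the Rps2 start window began at base 24720083 (GRCm38.p6).
Rpl21, second probe, chr8:22464646-22464705 (mm9, plus strand): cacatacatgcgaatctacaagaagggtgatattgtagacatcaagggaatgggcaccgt
Rps2, chr17:42864841-42864900 (mm9, plus strand): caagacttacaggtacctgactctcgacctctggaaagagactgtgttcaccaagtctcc

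Over the 54 members with more than 1 probe detected in all 8 cells, 86 further probes could be set beside the chosen one. Of these, 83 were on the same side of 0, with a median absolute difference from the chosen probe of 0.08. The exceptions included a probe each of Rpl35a and Rpl36a, with differences of 0.39 and 0.54.

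Rps27l, Rpl37a and Rps7 had large differences with overlap between the genotypes. Rps27l, a paralogue of Rps27 that p53 induces, had the largest difference of all members, 2.32, just under 5-fold, with an SD of 3.19. Its values were 5.64 (the floor), 11.15, 16.06 and 12.94 in the WT cells and 14.40, 12.33, 13.48 and 14.87 in the KO cells, and without WT cell 1 the difference was 0.45. Rpl37a, a zinc-binding protein of the large subunit, gave 10.38, 16.83, 17.16 and 16.52 in the WT cells and 17.73, 16.34, 17.52 and 15.87 in the KO cells. Its difference of 1.64 rested on WT cell 1, without which it was 0.09. Rps7, a small subunit protein that also binds Mdm2, gave 14.31, 15.25, 16.32 and 15.45 in the WT cells and 16.94, 17.66, 16.07 and 17.09 in the KO cells. KO cell 3 lay just below WT cell 3, and the difference was 1.60 with an SD of 0.74.

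At the other end, Rpl22 had the lowest difference. Rpl22 is an RNA-binding protein of the large subunit that ribosomes can do without, and it represses its paralogue Rpl22l1. Its signal was 16.12, 15.06, 16.70 and 15.42 in the WT cells and 15.02, 9.90, 15.85 and 14.78 in the KO cells. The low value was that of KO cell 2 alone, and the difference of -1.94 became -0.60 without it. A second, dimmer probe of Rpl22 was at 12.72 in KO cell 2, its highest value in any cell, and gave a difference of 0.82.

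Rpl22l1 itself fell into high and low cells within each genotype. It was at 6.23, 13.39, 14.53 and 13.31 in the WT cells and at 8.79, 7.64, 14.45 and 13.91 in the KO cells. Low values thus occurred in WT cell 1 and in KO cells 1 and 2, and its SD of 3.65 was the largest of all members. The difference of -0.67 was -2.48 without WT cell 1 and 0.53 without KO cell 2. KO cell 2 was low for Rpl22l1 and for the chosen probe of Rpl22, but not for the second probe of Rpl22.

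KO cell 4 was the lowest of the 8 cells for 6 core members, namely Rps28, Rps29, Rps21, Rpl38, Rpl35a and Rpl37rt, which were singled out here after their values were seen. They gave 13.46, 13.28, 12.89, 14.77, 14.53 and 16.13 in that cell. Their differences ran from -0.71 for Rps28, less than its SD, to -0.14 for Rps21, with an SD of 0.94. Rpl38, which is needed for the translation of a subset of Hox mRNAs in the embryo, had a difference of -0.44 with an SD of 1.01, and Rpl37rt one of -0.53 with an SD of 0.91. Rps27, the parent of Rps27l, was lowest in KO cell 1 at 12.40 and had a difference of -0.51 with an SD of 1.46.

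Rpl35a was the member whose lower signal was most even. It gave 15.59, 15.10, 15.68 and 15.08 in the WT cells and 15.22, 14.83, 14.81 and 14.53 in the KO cells. KO cell 1 overlapped the WT cells, and the difference was -0.52 with an SD of 0.30. All WT cells were above all KO cells for Rpl35a under the 75th percentile and after quantile normalization, while its second probe gave 0.39. Small spreads were also seen for Rps25, with an SD of 0.30 and a difference of 0.25, and for Rpl35, with an SD of 0.43 and a difference of 0.24.

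The stalk proteins, which recruit the elongation factors to the large subunit, had differences of both signs over all cells, but only positive ones without WT cell 1. Rplp0, the base of the stalk, had a difference of 1.43 with an SD of 0.91, and its 2 other probes gave 0.85 and 0.90. Rplp1 had a difference of -0.02 and Rplp2 one of -0.29, with SDs of 0.88 and 0.87. WT cell 1 was the lowest cell for the chosen Rplp0 probe at 14.86 and the highest for Rplp1 at 19.49 and Rplp2 at 19.40. Without WT cell 1 the differences were 0.92, 0.55 and 0.33. On the 2 other Rplp0 probes WT cell 1 was not the lowest cell, at 15.94 and 16.69. On both, all KO cells lay above all WT cells, by 0.04 and 0.11, with SDs of 0.41 and 0.43.

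Rpl5, Rpl11 and Rpl23 bind Mdm2 and so link ribosome assembly to p53, with Rpl5 and Rpl11 doing so in the particle that holds the 5S RNA. All 3 had a higher mean in KO cells with differences larger than their SDs. Rpl11 gave 16.85, 16.50, 17.43 and 16.69 in the WT cells and 17.49, 18.49, 17.22 and 18.34 in the KO cells, a difference of 1.02 with an SD of 0.53. Rpl5 had a difference of 0.78 with an SD of 0.50, and Rpl23 one of 0.64 with an SD of 0.48. The genotypes overlapped for all 3, and with each cell centred on the members the differences of Rpl11, Rpl5 and Rpl23 were 0.32, 0.08 and -0.05.

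Of the 18 genes whose loss causes Diamond-Blackfan anaemia in people, 13 had a higher mean in KO cells and 5 a lower one, with a median difference of 0.59. The share with a higher mean was 72.2%, against 81.4% of all members. Rps19, the gene most often affected in patients, had a difference of 0.49 with an SD of 0.76. Rps26 had a difference of 0.83 with an SD of 0.41, and Rps24 one of 0.39 with an SD of 0.69. Rps28, Rpl35a, Rps27 and Rps29 were among those with a lower mean.

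Some members have known further roles. Rps6, the substrate of S6 kinase, had a difference of 0.56 with an SD of 0.51 on the chosen probe, but -0.876 with the mean of all its probes. Rpsa, also known as a laminin receptor, had a difference of 0.90 with an SD of 0.43, and Rps27a, made as a fusion with ubiquitin, one of 0.37 with an SD of 0.73. Ribosomal proteins whose symbols do not match the rule were also measured. Fau had a difference of 0.16 with an SD of 0.52, and Gnb2l1, the scaffold also called Rack1, one of 0.32 with an SD of 0.71.

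Paralogues with restricted expression were mostly undetected while their parents were bright. The testis paralogues Rpl39l and Rpl10l were at the floor in all 8 cells, Rpl39l well above background in none and Rpl10l in 2. Rpl7l1 was well above background in 2 cells and reached 5.84 in KO cell 1. Rps4l, annotated by RefSeq as a transcribed pseudogene, was at the floor in WT cell 1 and KO cell 1 and between 10.96 and 13.35 in the other 6. Rpl36al, a retrotransposed copy of Rpl36a, was detected in all cells at 12.65, 13.68, 11.71 and 10.89 in the WT cells and 13.18, 13.79, 13.64 and 13.50 in the KO cells, a difference of 1.30 with an SD of 0.87. Its parent Rpl36a had a difference of -0.16 with an SD of 1.02. Among the other parents, Rpl7 had a difference of 1.14, Rps4x one of 0.61, Rpl10 one of 0.52 and Rpl39 one of 0.43, which was -0.42 without WT cell 1, where Rpl39 was at 11.46. Rps19bp1 was above the floor only in WT cell 3, at 12.11.

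Genes of ribosome assembly had larger SDs between cells than most ribosomal proteins, at lower array signals for most of them. Of 62 listed biogenesis genes, 17 were well above background in all 8 cells. Their median difference was -0.09 with a median SD of 2.51, and 4 (23.5%) were at least 2-fold higher and 1 (5.88%) at least 2-fold lower in KO cells, against 14.2% and 7.94% of all genes detected in all cells. Of the 17, 9 lay between the 50th and the 75th percentile of these genes by mean signal, where the median SD of all genes was 1.60. Npm1, an abundant nucleolar chaperone, was the steadiest, with a difference of -0.14 and an SD of 0.74. Nop2, a methyltransferase of ribosomal RNA, was at 5.64 (the floor), 13.25, 11.34 and 6.70 in the WT cells and at 13.80, 7.57, 15.42 and 15.36 in the KO cells, a difference of 3.81 with an SD of 3.68. Of 17 genes that act upstream, among them Myc, Mtor and Larp1, only Max and Akt1 were well above background in all 8 cells. Akt1 had a difference of -0.05 with an SD of 1.20, and Max was above the floor only in WT cell 3.

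**Figure D5:**
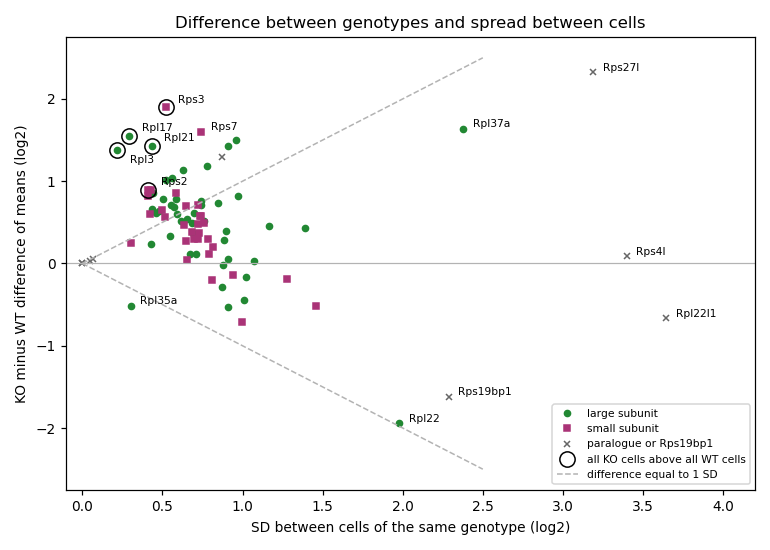
KO minus WT difference of mean log2 signal against the SD between cells of the same genotype for the 86 members, by subunit, with dashed lines where the difference equals 1 SD and circles around members whose KO cells all lie above all WT cells. The 5 circled members have SDs from 0.22 to 0.52, whereas Rps27l, Rpl37a, Rps19bp1, Rpl22l1 and Rps4l have SDs above 2 and Rpl22 one of 1.98.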

How the data were processed

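Single-cell cDNA was amplified, transcribed in vitro and hybridized in 1 colour (Cy3) to Agilent mouse arrays (design 028005) with 60-base probes. The authors deposited scanner output per array from Feature Extraction 12.0.2.2, whose processed signal is a background-corrected linear intensity, not yet scaled between arrays. Per the file headers the probe annotation follows mm9 (NCBI build 37).

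From the files, control spots and outlier-flagged spots were left out and spots of a probe were averaged, leaving 55295 of 55681 probes usable on all 8 arrays, with 0 saturated spots. A probe was called well above background where over 50% of its usable spots were flagged so. Scaling set the 50th percentile of 7570 probes, those well above background throughout, equal between arrays, a floor of 50 (5.64 on the log2 scale) was set, and log2 was taken. Differences are of mean log2 values. A value at the floor has no order. Signals of different probes were not compared as levels, and the top 25% by mean signal served only to group probes. The number of arrays limits the precision.

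A few genes are not reported here. The members and gene lists were chosen with earlier results of these data known. Named were the 5 largest differences in each direction, the 5 largest and 5 smallest SDs (here the mean of the SDs of both genotypes, not the pooled SD printed) among members detected in all cells, members without overlap, members not detected in all cells, and listed genes of known roles. All 8 arrays shared 1 slide and 1 scan. WT and KO arrays occupied different columns of that slide, hence genotype and position cannot be told apart. Labels and methods differ on the dissected region (heart tube or ventricle). Alternatives were another percentile, floor, background correction (normexp, limma 3.58.1 in R 4.3.3), quantile normalization, no scaling, averaging all probes per gene, core members only, and leaving out each cell. Calculations ran in Python 3.11.15 with pandas 2.3.3 and numpy 2.4.6 and were tested on simulated data. Promoter sequences and gene chromosomes came from RefSeq (GRCm38.p6), to which 78 members were matched by accession and 8 by symbol.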

Additional observations from a re-analysis of the deposited data

Results flagged for a closer look

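In groups of 4 cells, a single cell was set apart where its gap to the nearest cell divided by the range of the group (Dixon's ratio) exceeded the 95% critical value. Of 99 such groups over the named members and the summary values, 7 met this, where chance gives about 1 in 20, or 4.95. In WT cells, Rpl22l1 was low in WT cell 1 (6.23, next 13.31, ratio 0.853). Rpl37a was likewise low in WT cell 1 (10.38, next 16.52, ratio 0.907). WT cell 3 was high for Rpl7 (17.11, next 15.82, ratio 0.951) and for Rps25 (17.72, next 16.93, ratio 0.927). Ratios of 1 came from groups with 3 cells at the floor: Rps19bp1 in WT cell 3 (12.11), and Rpl3l (5.78) and Rpl7l1 (5.84) in KO cell 1. WT cell 1 is the array with the largest variation between replicate spots, and the part of this in its low values was not tested.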

How the results depend on the processing

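The members' median difference of 0.49 was 0.11 with the 75th percentile, -0.0433 after quantile normalization and -0.20 with cells centred on the members' median, a setting chosen after seeing the data. For the large subunit the same 3 settings gave 0.21, -0.0261 and -0.0940, and for the small subunit quantile normalization gave -0.10 and centring -0.23. The median SD between cells was 0.45 after quantile normalization and 0.49 with centring. Members at least 2-fold higher numbered 8 with the 75th percentile, 2 after quantile normalization and 2 with centring. Those at least 2-fold lower numbered 4, 7 and 8 under these settings, and 1 with core members only or with the mean of all probes. A 5-fold higher member appeared with a floor of 10 and with the mean of all probes (1 each), and a 5-fold lower one with the 75th percentile and with centring (1 each). The cause of these shifts was not tested.

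Leaving out 1 cell at a time gave a median difference of 0.32 to 0.75 over all members, 0.38 to 0.81 for the large and 0.18 to 0.74 for the small subunit, a median SD of 0.63 to 0.74, 11 to 20 members at least 2-fold higher, 1 to 5 at least 2-fold lower, 0 to 1 at 5-fold in each direction, 79 to 81 detected in all cells and a share difference of -1.23 to -0.40 percentage points. Members whose KO cells all lay above the WT cells numbered 5 to 20: 11 without WT cell 1, 19 without WT cell 3 and 20 without KO cell 3. They numbered 2 with no scaling, none of them among the 5 reported, and 2 after quantile normalization. Of 922 differences of single members under these settings, 854 moved by less than their SD and 62 moved further. The other 6 changed sign in members whose reported difference was larger than its SD. Of these, Rps4x was -0.0148 after quantile normalization and -0.0897 with centring. Rps6 was -0.135 with centring and -0.876 with the mean of all probes. Rpl18 was -0.00926 and Rpl23 -0.0524 with centring. Sign changes of members with a difference smaller than the SD are not among the 6. For example, Rpl10 was -0.18 and Rps25 -0.44 with centring, and Rpl39 was -0.42 without WT cell 1. No paired analysis was possible because the embryo of each cell was not given and no test was made.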
